A study of Mus musculus with 21 samples.

Results

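A set of 10 genes of the fibroblast growth factor (FGF) pathway were followed through cultured mouse pluripotent cells and early mouse epiblasts: the ligand genes Fgf4, Fgf8 and Fgf15, the receptor genes Fgfr1 and Fgfr2, the feedback inhibitor genes Spry2, Spry4 and Dusp6, and the ETS transcription factor genes Etv4 and Etv5. They were taken from the count table by their symbols, and all 10 were found among its 33861 genes. RNA sequencing had been done on 12 cultured samples of 1000 cells each and on 9 single epiblasts. The sharpest pattern among epiblasts was the fall of Fgf4 between E5.0 and E6.0. Among cultured cells it was the lower Spry4 and Dusp6 of the cells named FS against those named AF.

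FGF ligands bind receptor tyrosine kinases on the cell surface with heparan sulphate as a cofactor, and the receptors signal through RAS and RAF to the kinase ERK. Active ERK turns on a set of genes that includes its own brakes: Sprouty proteins, which act between the receptor and RAS, and Dusp6, a cytoplasmic phosphatase that removes the activating phosphates from ERK. It also turns on Etv4 and Etv5, which belong to the PEA3 group of ETS factors, so transcripts of these genes are widely used as a readout of the pathway. In the early embryo Fgf4 is made by the epiblast, and Fgf8 is known for its role in the primitive streak and gastrulation.

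FS cells are labelled formative stem cells and were grown in a medium that the labels call A3XR. They came from a pair of lines, FS1 at passages 10, 11 and 18 and FS2 at passages 12, 13 and 16. AF and AFX cells are labelled EpiSCs (epiblast stem cells), carry the name E14 in their descriptions, and were each grown in the medium of the same name and collected at passages 14, 15 and 16. The components of the 3 media are not given in the labels, and no genotype or embryo strain is given for any group. FS differed from AF and AFX in line as well as in medium, so that line and medium cannot be told apart, and passages of 1 line are not separate derivations. Epiblasts were collected one by one at E5.0 (embryos 1, 2 and 4), E5.5 (embryos 1 to 3) and E6.0 (embryos 1 to 3). Another label field gives the last stage as E6.5.

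Total counts per sample were between 5827093 and 15916800, of which ribosomal RNA loci took 19.97% to 31.7%. A gene with 3 counts stood at 0.171 to 0.590 CPM (counts scaled to a library total of 1000000), so every level below that range rests on fewer than 3 counts. None of 7 epiblast markers was at 0 in any sample. Summed, they were at 1911 to 2874 CPM in FS, 1180 to 1775 in AF and 1846 to 2231 in AFX. In epiblasts the sum was higher, at 3896 to 4128 CPM at E5.0, 5176 to 5573 at E5.5 and 5676 to 7154 at E6.0. Markers of other cell types were also present. Summed feeder fibroblast markers were at 51.9 to 86.3 CPM in FS, 353 to 381 in AF, 109 to 115 in AFX and lower in epiblasts. Summed visceral endoderm markers were at 637 to 1249 CPM at E5.0, against 170 to 213 at E5.5 and 113 to 143 at E6.0. Embryo 2 of E5.0 stood apart with the highest endoderm sum and an extraembryonic ectoderm sum of 71.5 CPM, against 25.1 and 31.1 in the other 2 E5.0 embryos.

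In GRCm38, the ligand genes lie at chr7:144847367-144865243 (Fgf4, + strand), chr19:45736798-45742915 (Fgf8, - strand) and chr7:144896531-144900953 (Fgf15, + strand), so that Fgf4 and Fgf15 are neighbours. The receptor genes lie at chr8:25513654-25575718 (Fgfr1, + strand) and chr7:130162451-133123350 (Fgfr2, - strand). Spry2 lies at chr14:105891947-105896819 (- strand), Dusp6 at chr10:99263231-99267489 (+ strand), Etv4 at chr11:101769742-101785371 (- strand) and Etv5 at chr16:22381309-22439719 (- strand). Counts were of whole genes, and whether reads were assigned by strand is not given in the sources used here. Fgf15 shares 761 exon bases, 24.9% of its exon length, with the antisense gene Gm26793, whose own level was 0.0934 to 2.88 CPM, so a part of the reads of these genes cannot be told apart. Fgfr1 shares 164 bases (1.66%) with antisense Gm16159, and Fgfr2 shares 314 bases (3.04%) with Ctbp2 on its own strand. Ctbp2 was at 134 to 271 CPM, above the 2.49 to 85.4 CPM of Fgfr2. The part of Ctbp2 reads in the Fgfr2 counts was not tested. The span given for Fgfr2 is that of a long annotated gene model. The RefSeq promoter window of Fgfr2 lies inside that span, at chr7:130266809-130267058 on the - strand.

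The RefSeq promoter table for GRCm38.p6 was searched for all 10 symbols, and 5 matched: Fgf4, Fgfr2, Spry2, Dusp6 and Etv5. Promoters of Fgf4, the ligand gene with the largest fall among epiblasts, and of Dusp6, a feedback gene with a firm difference among cultured cells, are given here for the 250 bases before the start, at chr7:144861136-144861385 and chr10:99262981-99263230, both on the + strand. Capitals mark the GC box (GGGCGG) and the CCAAT box, searched on both strands, so that a CCAAT box on the opposite strand reads ATTGG.
Fgf4: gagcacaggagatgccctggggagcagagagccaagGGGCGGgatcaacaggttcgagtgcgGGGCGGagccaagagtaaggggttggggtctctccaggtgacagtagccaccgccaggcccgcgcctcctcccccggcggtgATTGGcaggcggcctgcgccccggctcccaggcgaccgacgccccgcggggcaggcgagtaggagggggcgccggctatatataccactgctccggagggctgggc
Dusp6: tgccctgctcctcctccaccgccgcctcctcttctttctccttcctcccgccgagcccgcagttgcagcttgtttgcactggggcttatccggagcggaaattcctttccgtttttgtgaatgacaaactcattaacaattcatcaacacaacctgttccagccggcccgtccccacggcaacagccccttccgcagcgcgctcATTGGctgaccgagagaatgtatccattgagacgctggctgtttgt
The Fgf4 window holds 2 GC boxes, 214 and 188 bases before the start, and a CCAAT box on the opposite strand 106 bases before it. The Dusp6 window holds a CCAAT box on the opposite strand 46 bases before the start. These 2 motifs were chosen after the sequences were seen, and they occur in 32.7% (GC box) and 33.8% (CCAAT) of all 32817 promoters of the table. Exact matches were also sought for CCGGAA (an ETS site, 12.02% of all promoters), TGANTCA (AP-1, 6.75%), TGACGTCA (CRE, 1.55%) and TATAAA (12.4%). None was found in the windows of the 5 genes. Other forms of these sites were not searched, so their absence is not shown. The Dusp6 window printed above holds the shorter ETS core GGAA, and the Fgf4 window holds TATATATA near its end.

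Per kilobase of exon, Etv5 stood highest of the 10 genes in every group but AF, and Fgfr2 was among the lowest. Etv5 was at 30.2 ± 9.58 CPM per kilobase in FS (SD, n = 6), 30.0 ± 4.28 in AF (n = 3) and 89.2 ± 9.78 in E5.0 epiblasts (n = 3). In AF, Fgf8 was higher at 39.9 ± 19.4 and Dusp6 was at 30.1 ± 2.61. Fgf4 reached 34.2 ± 1.89 CPM per kilobase at E5.0 against 2.43 ± 0.140 in AF. Fgfr1 held 12.6 to 21.2 CPM per kilobase in the means of all groups, whereas Fgfr2 was between 0.485 and 5.04. All later levels are in CPM and are compared between samples of the same gene only.

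**Figure D1:**
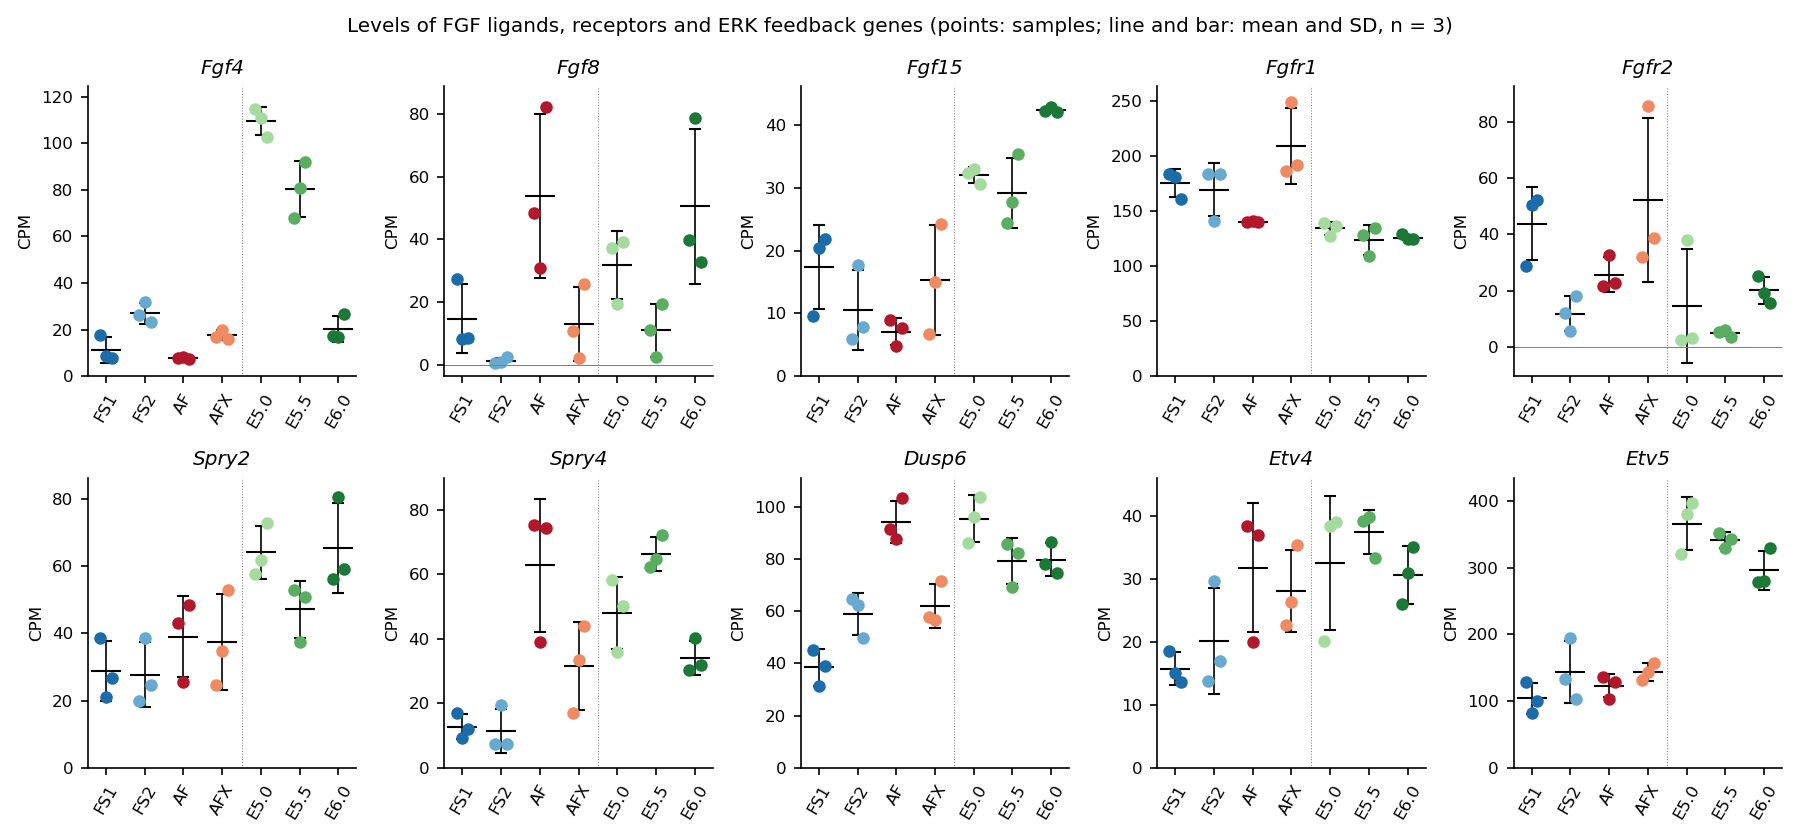
Levels of the 10 genes in CPM (vertical axes) in each of the 21 samples, by FS line, culture group and epiblast stage. Points are samples, and the horizontal line and bar are the mean and SD of 3 samples. Fgf4 and Etv5 sit highest in E5.0 and E5.5 epiblasts, and Spry4 lowest in both FS lines.

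The comparison of FS with AF asks where formative and epiblast stem cell cultures differ in this pathway. Fgf4 was higher, and Spry4, Dusp6 and Etv4 were lower, in FS than in AF with adjusted p-values below 0.05 (quasi-likelihood F-test of edgeR, Benjamini-Hochberg over all genes), which is the threshold used throughout for a gene called changed. That is 4 of the 10 genes, against 19.5% of the 16052 genes tested. Against AFX, 1 gene was called, Spry4, which was lower in FS (8.7% of all genes). AFX differed from AF in 1 gene, Fgfr1, which was higher (8.73% of all genes). FS2 differed from FS1 in 3 genes (3.85% of all genes): Fgf4 and Dusp6 were higher and Fgfr2 lower. With 1 sample left out at a time, the counts of called genes ran from 2 to 5 for FS against AF, 0 to 2 for FS against AFX, 0 to 1 for AFX against AF and 0 to 3 for FS2 against FS1, and the samples behind the losses are named with each gene. The median log2 difference of the 10 genes was -0.24 for FS against AF, where the median of all genes was 0.02, and -0.39 for FS against AFX, where that of all genes was 0.00. These comparisons share samples, the AF, AFX or FS samples entering more than 1 of them.

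**Figure D2:**
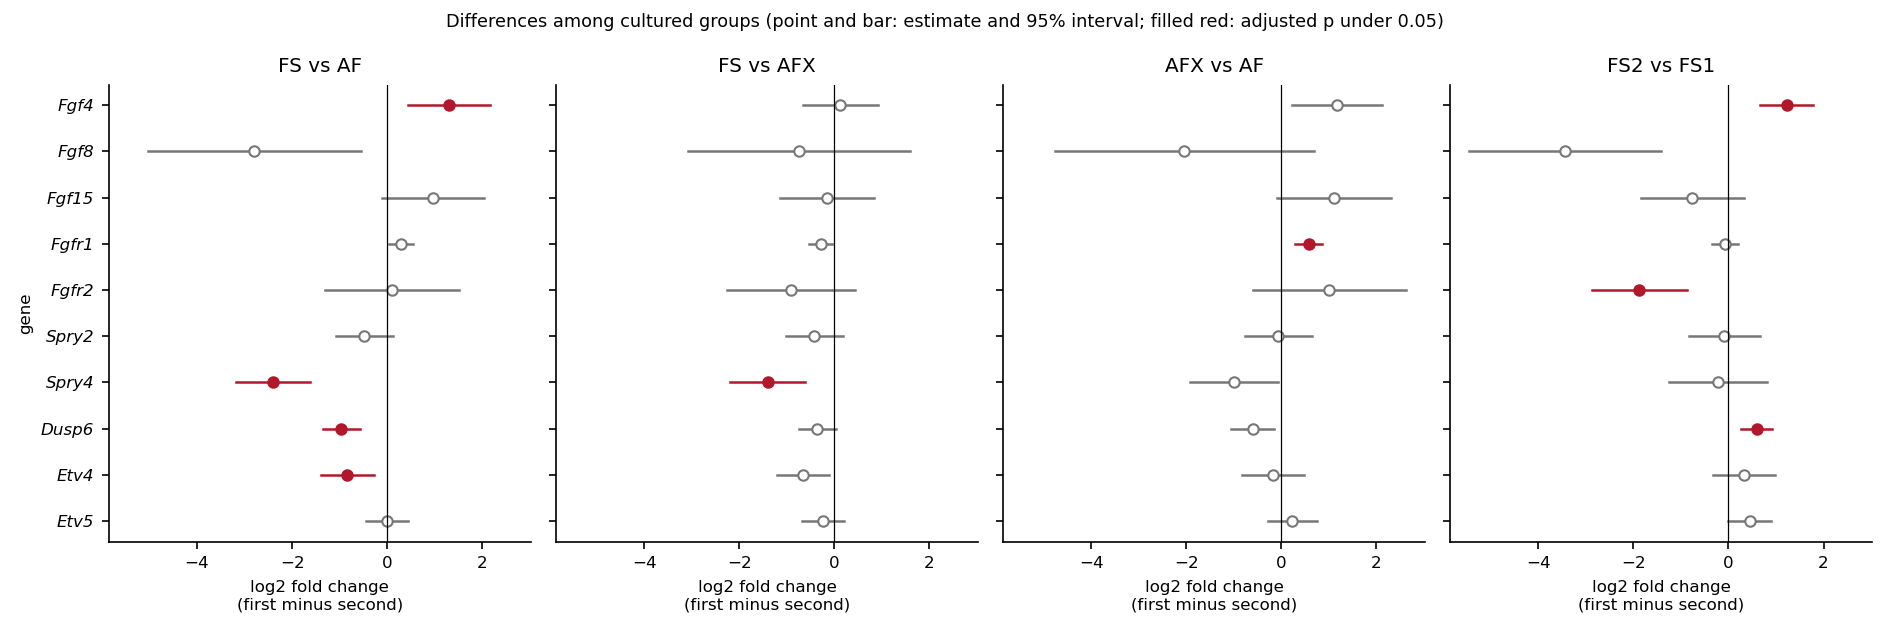
Log2 fold changes (horizontal axes, first group minus second) of the 10 genes (vertical axis) in 4 comparisons among cultured cells. Points and bars are the estimate and its 95% interval, and filled red points have an adjusted p under 0.05. Spry4 and Dusp6 lie clear of 0 for FS against AF, and Fgf8 has the widest intervals.

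Among the ligands, the FS lines did not overlap in Fgf4 or in Fgf8. Fgf4, the ligand that the epiblast itself makes, was at 17.9, 8.63 and 7.83 CPM in FS1 and at 26.2, 31.9 and 23.1 CPM in FS2. AF held 7.90, 8.10 and 7.25 CPM, and AFX 17.0, 19.9 and 15.9 CPM. Every FS2 sample was above every other cultured sample, and FS1 at passages 11 and 18 lay near or within the AF range. FS2 was 2.33-fold above FS1 (log2 difference 1.22 ± 0.257 SE, edgeR adjusted p 0.0146), and FS as a whole 2.46-fold above AF (1.30 ± 0.395, adjusted p 0.0343). Both calls depended on single samples. The first was lost without FS1 passage 11 (adjusted p 0.0846), FS1 passage 18 (0.0607) or FS2 passage 13 (0.0722), and the second without any 1 of the 3 AF or 3 FS2 samples (0.0523 to 0.125). In all, 8 of 17 alternatives kept the second. With FS1 alone in place of FS, Fgf4 differed from AF by 0.55 (adjusted p 0.251). AFX lay above AF in all samples, by 1.18 ± 0.437, and was not called (adjusted p 0.125).

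Fgf8 went the other way between the lines. It was at 27.3, 8.04 and 8.40 CPM in FS1 and at 0.563, 0.951 and 2.28 CPM in FS2. AF held 48.4, 30.7 and 82.3 CPM, and AFX 10.8, 2.25 and 25.6 CPM. FS2 lay below FS1 without overlap, AF lay above all FS and AFX samples, and AFX spread over both FS lines. FS was 6.93-fold below AF (log2 difference -2.79, 95% interval -5.03 to -0.56), with an adjusted p of 0.0812. Without FS1 passage 10, the highest FS sample, it was -3.77 with an adjusted p of 0.0164, and with the lines as separate groups -3.60 (0.00229). FS2 lay below FS1 by 3.44 ± 0.909 on the log2 scale, with an adjusted p of 0.0689 by edgeR and of 3.31e-37 to 0.214 over the alternatives (0.00306 by the DESeq2 Wald test, and the lowest with no filter on low counts). Summed primitive streak markers were also highest in AF, at 157 to 604 CPM against 34.4 to 122 in FS and 70.5 to 152 in AFX, and their part in the Fgf8 levels was not tested. As in any bulk sample, fewer cells that express a gene and less RNA of it per cell cannot be told apart.

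Fgf15, the mouse counterpart of human FGF19 and a member of the endocrine FGF group, varied widely within each culture. It was at 9.64, 20.5 and 21.9 CPM in FS1, 5.95, 17.7 and 7.80 in FS2, 8.89, 4.84 and 7.62 in AF and 6.79, 15.02 and 24.2 in AFX. FS, AF and AFX overlapped in Fgf15, although FS1 alone lay above AF, and none of the 4 cultured comparisons called it. The largest, AFX against AF, was 1.11 with a 95% interval of -0.08 to 2.30 (adjusted p 0.267).

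Fgfr1, the main FGF receptor of the epiblast, was the steadiest gene in culture. AF samples stood at 140, 141 and 139.9 CPM, FS samples at 142 to 184 CPM (median 183) and AFX samples at 187, 249 and 192 CPM. The 3 groups did not overlap, in the order AFX, FS, AF. AFX exceeded AF 1.49-fold (log2 difference 0.57 ± 0.133, edgeR adjusted p 0.0148), a call lost without AFX passage 15, the highest sample (0.43, adjusted p 0.0867). In all, 11 of 13 alternatives kept this call. FS lay between, 0.29 above AF (adjusted p 0.0992) and 0.29 below AFX (adjusted p 0.144), with neither difference called.

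Fgfr2, whose isoforms bind different ligands and which is known for its role in extraembryonic lineages, split the FS lines. FS1 held 28.7, 50.3 and 52.0 CPM and FS2 held 11.9, 5.49 and 18.2 CPM. AF stood at 21.5, 32.7 and 22.9 CPM, and AFX at 31.9, 85.4 and 38.8 CPM. FS2 was below all other cultured samples. The difference between the lines was -1.87 ± 0.457 on the log2 scale (3.66-fold lower in FS2, edgeR adjusted p 0.0483), and it lost the call without FS1 passage 11, FS1 passage 18, FS2 passage 12 or FS2 passage 13 (adjusted p 0.118 to 0.151). A fit of the 2 lines alone also lost the call (adjusted p 0.0704). Summed extraembryonic ectoderm markers were at 29.7 to 57.8 CPM in FS1 and 12.9 to 27.1 in FS2, and their part was not tested.

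Of the 10 genes, the feedback inhibitors Spry4 and Dusp6 were those called lower in FS than in AF under all alternatives. Markers of other cell types moved with this contrast: besides the feeder markers above, summed extraembryonic ectoderm markers were at 165 to 328 CPM in AF, 64.9 to 74.9 in AFX and 12.9 to 57.8 in FS. Summed visceral endoderm markers were at 121 to 250 CPM in AF, 71.1 to 100.5 in AFX and 39.1 to 84.1 in FS. Of the 9 extraembryonic ectoderm and 12 visceral endoderm markers, 1 and 2 were at 0 in each AF sample. The part of these cells in the differences was not tested. Spry4, an inhibitor between the receptor and RAS, was at 17.1, 9.22 and 11.99 CPM in FS1 and 7.24, 19.3 and 7.52 CPM in FS2. In AF it was at 75.2, 39.0 and 74.3 CPM and in AFX at 17.1, 33.3 and 44.1 CPM. AF lay above every FS sample, and only AFX passage 14 fell within the FS range. FS was 5.28-fold below AF (log2 difference -2.40 ± 0.357, edgeR adjusted p 0.000597), called in all 17 alternatives (-2.65 to -2.25). FS was 2.64-fold below AFX (-1.40 ± 0.363, adjusted p 0.0319), a weaker call that 9 of 17 alternatives kept. It was lost without FS1 passage 11 or 18, FS2 passage 12 or 16, or AFX passage 15 or 16 (adjusted p 0.0524 to 0.170). Between the FS lines Spry4 was not called (difference -0.22, 95% interval -1.25 to 0.81).

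Dusp6, the ERK phosphatase, was at 45.3, 31.3 and 39.0 CPM in FS1, 64.6, 62.5 and 49.7 in FS2, 91.6, 87.7 and 103 in AF and 57.8, 56.6 and 71.8 in AFX. The groups ran from FS1 through FS2 and AFX, which overlapped, to AF, which lay above them all. FS was 1.95-fold below AF (-0.96 ± 0.180, edgeR adjusted p 0.00178), again called in all 17 alternatives (-1.30 to -0.70). FS against AFX gave -0.36 and was not called (adjusted p 0.270, called in 1 of 17 alternatives). FS2 exceeded FS1 1.51-fold (0.59 ± 0.153, adjusted p 0.0448), and that call was lost without FS1 passage 11 or 18 or FS2 passage 12 or 13 (adjusted p 0.110 to 0.168). AFX against AF gave -0.61 without overlap of samples and was not called (adjusted p 0.102). Fitting the FS lines as separate groups brought it to an adjusted p of 0.0163.

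Spry2, the closest relative of Spry4 among the 10 genes, did not follow it past the threshold. It was at 38.6, 21.2 and 26.7 CPM in FS1, 19.9, 38.5 and 24.6 in FS2, 43.2, 25.5 and 48.4 in AF and 24.7, 34.8 and 52.9 in AFX. All 4 groups overlapped, and FS against AF gave -0.48 (95% interval -1.08 to 0.12, adjusted p 0.261).

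The ETS factors split. Etv4 was at 18.6, 15.02 and 13.5 CPM in FS1, 13.8, 29.7 and 16.9 in FS2, 38.4, 19.9 and 36.9 in AF and 22.6, 26.3 and 35.3 in AFX. FS was 1.78-fold below AF (-0.84 ± 0.259, edgeR adjusted p 0.0351), although FS2 passage 13 stood above AF passage 15. That call was lost without FS1 passage 11 or 18, FS2 passage 12 or 16, or AF passage 14 or 16 (adjusted p 0.0541 to 0.151). In all, 10 of 17 alternatives kept it. Etv5 was at 128, 82.8 and 101 CPM in FS1, 134, 194 and 103 in FS2, 137, 103 and 129 in AF and 131, 143 and 158 in AFX. No cultured comparison of Etv5 was called. FS against AF gave a log2 difference of -0.00 with a 95% interval of -0.45 to 0.44, an interval that does not reach the difference found for Spry4.

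The 93 other pathway genes considered were listed in 8 groups by role, and 78 passed the filter on low counts in cultured cells. Of these 78, 28 were lower and 1 higher in FS than in AF, with a median log2 difference of -0.30 against 0.02 for all genes. That is 29 called of 78, where 19.5% of all genes were called. By role, 8 of 17 other feedback inhibitors were lower (median -0.73), as were 5 of 9 ETS factors, 4 of 7 immediate early genes, 4 of 12 heparan sulphate genes, 3 of 9 ligands, 3 of 14 genes of the RAS to ERK cascade, and 1 of 2 receptors, and the share of the cascade genes was near that of all genes. Of 8 adaptors, 0 were called by edgeR and 0 had an unadjusted p under 0.05. The 1 higher gene was Hs2st1, a heparan sulphate sulphotransferase (32.4 ± 2.98 against 24.0 ± 0.670 CPM, adjusted p 0.0153). Leaving out AF passage 16 brought the number called from 29 to 17, and other single samples left out gave up to 32.

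Among the inhibitors, Dusp9, an ERK phosphatase like Dusp6, had a mean of 8.01 ± 5.14 CPM over the FS samples (SD, n = 6) and of 48.3 ± 10.1 CPM over AF (n = 3), a log2 difference of -2.61 (edgeR adjusted p 0.00202). Dusp4, a nuclear phosphatase, stood at 17.2 ± 6.25 CPM in FS, 80.0 ± 18.9 in AF and 49.7 ± 11.04 in AFX, and lower in FS against both (-2.23, adjusted p 0.000115, and -1.53, adjusted p 0.00355). Il17rd (Sef), which inhibits at the receptor, was lower in FS than in AF (-1.26, adjusted p 0.000217) and in AFX than in AF (-0.87, adjusted p 0.0190). Spry1 (-1.02, adjusted p 0.0170) and Spred1 (-0.73, adjusted p 0.0165) were also lower in FS than in AF, and Spred2 was not called (0.19, adjusted p 0.346). Against AF, lower inhibitor transcripts in FS were thus found beyond Spry4 and Dusp6. Against AFX, 2 of the 17 other feedback inhibitors were lower in FS and 0 higher (median 0.02), where 8.7% of all genes were called. Dusp9 averaged 8.31 ± 2.74 CPM in AFX, near its FS mean. Of the immediate early genes, which respond to ERK within minutes, Phlda1 (-3.09, adjusted p 0.000237) and Egr1 (-2.62, adjusted p 0.000371) were lower in FS than in AF. Egr1 averaged 4.65 ± 1.59 CPM in FS, 28.4 ± 3.79 in AF and 29.9 ± 22.4 in AFX. Summed feeder, extraembryonic ectoderm and visceral endoderm markers were highest in AF, as given above, and their part in these differences was not tested.

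Against AFX, 8 of the 78 genes were lower in FS, a share near the 8.7% of all genes, with Egr1 (-2.70, adjusted p 0.000626), Dusp4 and the syndecan gene Sdc4 (-0.66, adjusted p 0.0114) among them. AFX against AF had 4 higher and 7 lower of the 78, where 8.73% of all genes were called. Sdc4 (0.67), Ext1 (0.63) and Hs2st1 (0.52), which make or carry heparan sulphate, were higher in AFX (adjusted p 0.0281, 0.00663 and 0.0188), and Dusp9 was lower (-2.56, adjusted p 0.0182). Between the FS lines 1 of the 78 was called. Fgf2, whose protein is a common medium supplement, was hardly transcribed, with a mean of at most 0.556 CPM in any group. Fgf5, a marker of primed epiblast, averaged 87.0 ± 24.1 CPM in FS and 136 ± 46.7 in AF and was not called (adjusted p 0.0898).

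In epiblasts Fgf4 fell steeply to E6.0, Spry4 fell after E5.5 and Etv5 fell slightly, and the other 7 genes were not called in any comparison of stages. Between E5.0 and E5.5, edgeR called 0 of the 10 (6.82% of the 14228 genes tested), with 4 at an unadjusted p under 0.05 and 0 called by the DESeq2 Wald test. Between E5.5 and E6.0, 2 genes fell, Fgf4 and Spry4 (4.43% of all genes). Between E5.0 and E6.0, Fgf4 and Etv5 fell (21.8% of all genes). The median log2 difference of the 10 genes from E5.0 to E6.0 was -0.10, where that of all genes was -0.02.

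**Figure D3:**
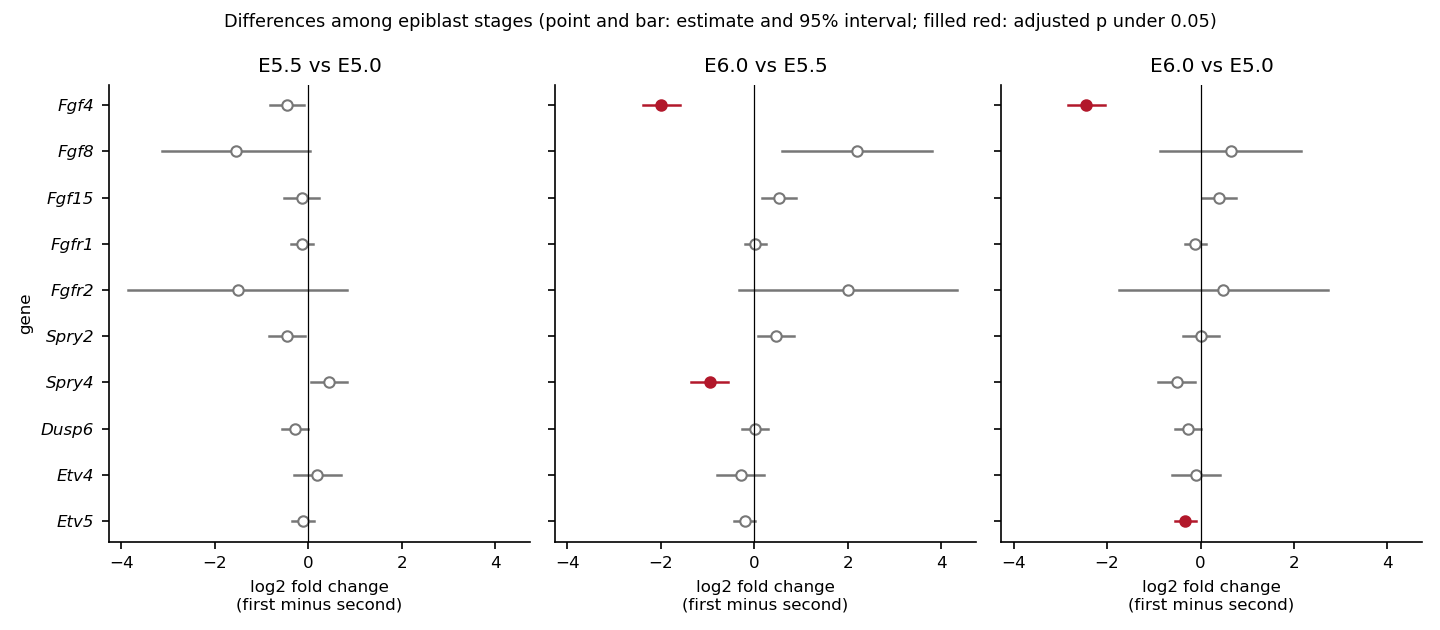
Log2 fold changes (horizontal axes, later stage minus earlier) of the 10 genes (vertical axis) in 3 comparisons of epiblast stages. Points and bars are the estimate and its 95% interval, and filled red points have an adjusted p under 0.05. Fgf4 has the largest fall to E6.0, and Fgfr2 and Fgf8 the widest intervals.

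Fgf4 was at 115, 111 and 103 CPM in the E5.0 embryos, 68.1, 80.9 and 92.0 at E5.5 and 17.4, 16.9 and 26.5 at E6.0. The 3 stages did not overlap and were in order of age. E6.0 was 5.46-fold below E5.0 (log2 difference -2.45 ± 0.184, edgeR adjusted p 1.33e-06) and 3.97-fold below E5.5 (-1.99 ± 0.182, adjusted p 2.4e-05). Both falls were called in all 12 alternatives. The earlier step, E5.5 against E5.0, was -0.46 with a 95% interval of -0.83 to -0.09 (adjusted p 0.127).

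Fgf8 took a different course, at 37.3, 19.3 and 39.0 CPM at E5.0, 11.1, 2.41 and 19.2 at E5.5 and 40.0, 78.8 and 32.8 at E6.0. Its E5.5 samples were the lowest of the 3 stages, barely without overlap, and embryos of the same stage differed widely. The difference between E6.0 and E5.5 was estimated at 2.20 (95% interval 0.60 to 3.79) and was not called (adjusted p 0.136). Summed primitive streak markers were at 74.0 to 126 CPM at E5.0, 23.4 to 52.2 at E5.5 and 83.4 to 265 at E6.0. Their part in the Fgf8 levels was not tested. Fgf15 was at 32.3, 33.0 and 30.6 CPM at E5.0, 24.4, 27.8 and 35.3 at E5.5 and 42.2, 42.9 and 42.0 at E6.0. Its E6.0 embryos were closely alike and above all earlier ones, with a difference from E5.5 of 0.53 that was not called (adjusted p 0.0976).

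Fgfr1 stayed within a narrow range, at 128 to 139 CPM at E5.0, 109 to 134 at E5.5 and 124 to 129 at E6.0. Its log2 difference between E6.0 and E5.0 had a 95% interval of -0.34 to 0.12. Fgfr2 was at 2.49, 37.9 and 3.002 CPM at E5.0, 5.20, 6.20 and 3.64 at E5.5 and 25.2, 19.2 and 15.8 at E6.0. The high E5.0 value belongs to embryo 2, which also had the highest summed visceral endoderm and extraembryonic ectoderm markers of the stage, and none of the 9 extraembryonic ectoderm markers was at 0 in it. With this embryo, E6.0 differed from E5.0 by 0.49 (adjusted p 0.770). Without it, the difference was 2.86 (edgeR adjusted p 0.000187), and that from E5.0 to E5.5 turned from -1.51 to 0.86, neither called. The part of the extraembryonic markers in the Fgfr2 level of embryo 2 was not tested.

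Spry4 was at 62.2, 64.7 and 72.2 CPM at E5.5, above all other embryos, against 58.2, 36.0 and 50.1 at E5.0 and 30.4, 40.2 and 31.9 at E6.0. Its fall from E5.5 to E6.0 was 1.95-fold (-0.96 ± 0.182, edgeR adjusted p 0.00822), and without E6.0 embryo 1 the adjusted p was 0.0531. Spry2 ran opposite in its means, at 57.6, 61.9 and 72.9 CPM, then 53.1, 37.4 and 50.9, then 56.1, 80.7 and 59.2, with its E5.5 embryos below all others and neither step called (adjusted p 0.149 and 0.168). Dusp6 was at 86.3, 96.3 and 104 CPM at E5.0, 85.9, 69.3 and 82.5 at E5.5 and 78.0, 86.7 and 74.8 at E6.0, with no step called.

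Etv5 was at 321, 380 and 397 CPM at E5.0, 352, 329 and 342 at E5.5 and 278, 279.6 and 330 at E6.0. From E5.0 to E6.0 it fell 1.25-fold (-0.32 ± 0.106, edgeR adjusted p 0.0424), with overlapping samples. The call was lost without E5.0 embryo 2 or 4 or E6.0 embryo 1 or 2 (adjusted p 0.0973 to 0.189), and 5 of 12 alternatives kept it. Etv4 was at 20.1 to 38.9 CPM at E5.0, 33.3 to 39.7 at E5.5 and 25.9 to 35.1 at E6.0, with overlap throughout and no call.

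Of the other pathway genes, 78 were tested in epiblasts, 6 of them higher and 14 lower at E6.0 than at E5.0, a share near the 21.8% of all genes. Gab1, a docking protein that links receptors to RAS and PI3K signalling, fell at each step, from 121 ± 10.7 CPM (SD, n = 3) at E5.0 through 60.5 ± 5.96 at E5.5 to 15.7 ± 2.62 at E6.0 (E6.0 against E5.0 -2.96, edgeR adjusted p 8.61e-08). Dusp9 fell between E5.5 and E6.0 (-1.61, adjusted p 0.00728). Spred3 (1.29, adjusted p 0.00122) and Nf1 (1.11, adjusted p 0.00246), both brakes on RAS, and Ccnd1 (0.72, adjusted p 0.00352), a cell cycle gene, were higher at E6.0 than at E5.0. Between E5.0 and E5.5, 3 genes rose and 6 fell (6.82% of all genes were called), and between E5.5 and E6.0 3 fell, near the 4.43% of all genes. Leaving out E6.0 embryo 2 brought the 20 genes called between E5.0 and E6.0 to 11, and leaving out E5.0 embryo 2 brought them to 22.

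The comparison of cultured cells with epiblasts asks how close each culture comes to the embryo. FS differed from E5.5 epiblasts in 9 of the 10 genes, with Fgfr1 and Fgfr2 higher and 7 lower, against 43.8% of the 16614 genes tested. From E6.0 it differed in 8, Fgfr1 higher and 7 lower (38.9% of all genes). AF differed from E6.0 in 4, all lower (35.2% of all genes), and AFX in 4, Fgfr1 higher and 3 lower (32.8% of all genes). Without E6.0 embryo 3 the AF count was 2, and without AFX passage 14 the AFX count was 2. The median log2 difference of the 10 genes was -0.90 for FS against E5.5 and -0.996 for FS against E6.0, where those of all genes were 0.08 and 0.10. For AF and AFX against E6.0 it was 0.07 and -0.29. These comparisons share the E6.0 or FS samples, FS had 6 samples where AF and AFX had 3, and embryos and cultured cells differ in starting material. Summed epiblast markers were lower in every culture than in epiblasts, as given above. Summed neural markers were higher, at 285 to 395 CPM in FS, 407 to 463 in AF and 387 to 430 in AFX. In epiblasts they were at 48.4 to 73.5 CPM at E5.0, 74.8 to 103 at E5.5 and 128 to 161 at E6.0. The part of these marker differences in the differences of the 10 genes was not tested.

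**Figure D4:**
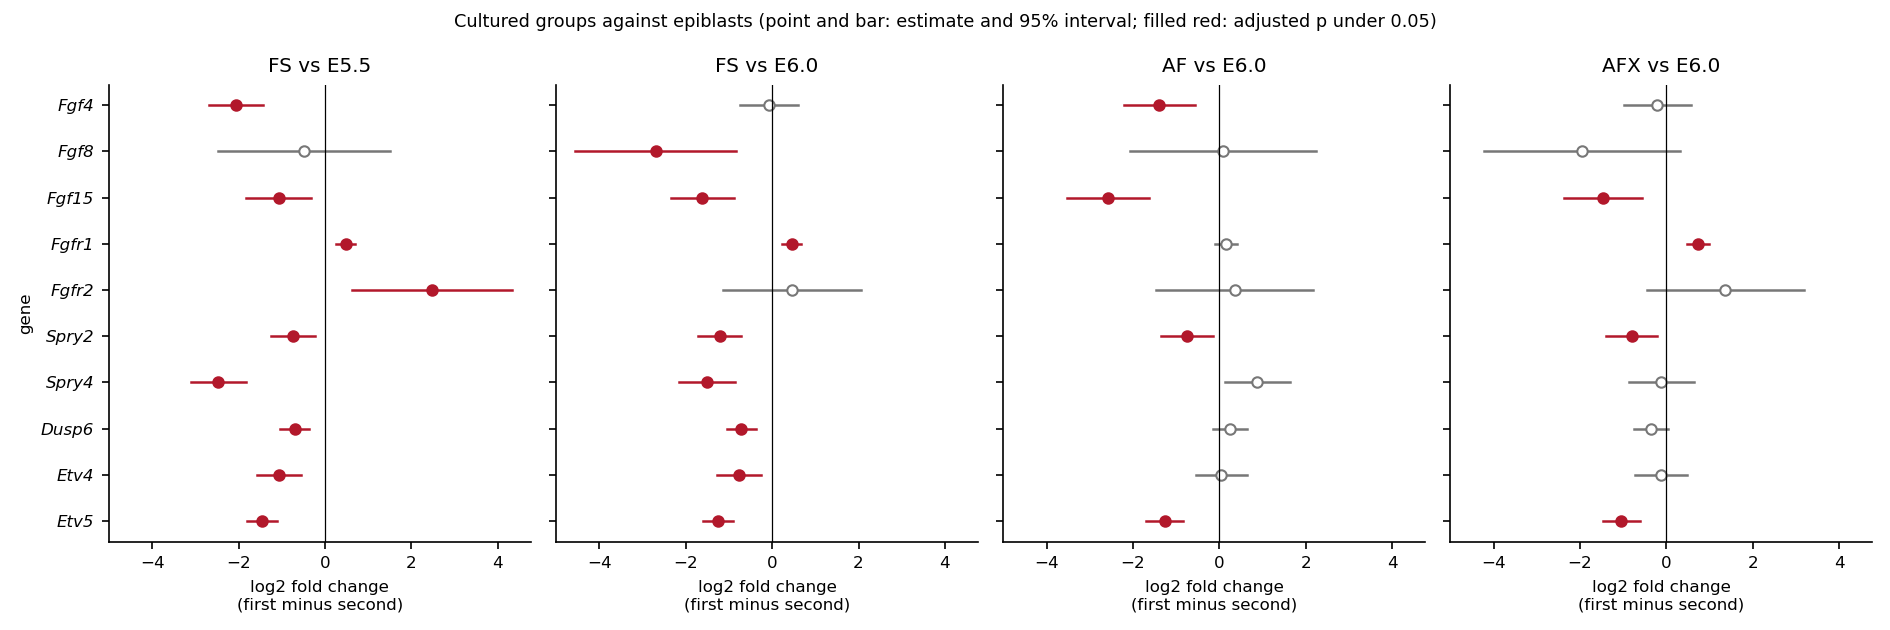
Log2 fold changes (horizontal axes, cultured group minus epiblast stage) of the 10 genes (vertical axis) in 4 comparisons. Points and bars are the estimate and its 95% interval, and filled red points have an adjusted p under 0.05. Etv5, Fgf15 and Spry2 lie below 0 in all 4 panels, and Spry4 has a filled point only in the 2 panels with FS.

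Etv5 set cultured cells apart most plainly. Its cultured samples reached at most 194 CPM and its epiblasts were at least at 278 CPM. FS was 2.76-fold below E5.5 (-1.46 ± 0.169, edgeR adjusted p 7.1e-07), and FS, AF and AFX were 2.39-, 2.41- and 2.06-fold below E6.0 (adjusted p 8.12e-06, 7.68e-05 and 0.000622). Every one of these calls held in all of its alternatives. Etv4 was called below the epiblasts only for FS, by 1.06 (E5.5, adjusted p 0.00130) and 0.78 (E6.0, adjusted p 0.0158, and 0.0511 or 0.0879 without E6.0 embryo 2 or 3), while AF and AFX against E6.0 gave 0.05 and -0.13 with intervals of -0.55 to 0.64 and -0.73 to 0.47. The FS call against E6.0 held in 14 of 17 alternatives, with an adjusted p of up to 0.115.

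Spry4 in FS was 5.54-fold below E5.5 (-2.47 ± 0.303, edgeR adjusted p 3.4e-06) and 2.85-fold below E6.0 (-1.51 ± 0.308, adjusted p 0.000824). AF against E6.0 gave 0.88 (95% interval 0.12 to 1.63, adjusted p 0.0653) and AFX -0.12 (-0.88 to 0.63), neither of them called. Dusp6 in FS was 1.62- and 1.64-fold below E5.5 and E6.0 (adjusted p 0.00133 and 0.00142), while AF (0.24) and AFX (-0.36) were not called. Spry2 was below the epiblasts in FS, AF and AFX, by 1.21, 0.75 and 0.81 on the log2 scale against E6.0 (adjusted p 0.000507, 0.0480 and 0.0360). The AF call was lost without AF passage 14 or 15 or any E6.0 embryo (adjusted p 0.0523 to 0.227), and the AFX call without AFX passage 14 or 15 or E6.0 embryo 2 or 3 (0.0554 to 0.171). With no filter on low counts both were lost (adjusted p 0.116 and 0.0879), and with DESeq2 size factors the AF call was lost (0.0572). FS was also below E5.5 in Spry2 (-0.74, adjusted p 0.0178), a call lost without E5.5 embryo 1 or 3 (0.0793 and 0.0722) and kept in 13 of 17 alternatives.

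Fgf4 in FS was 4.16-fold below E5.5 (-2.06 ± 0.297, edgeR adjusted p 2.15e-05) and not called against E6.0 (-0.07, 95% interval -0.74 to 0.60), whose mean of 20.3 CPM lay between those of FS1 (11.5) and FS2 (27.1). AF was 2.61-fold below E6.0 (adjusted p 0.00965, and 0.0531 without E6.0 embryo 3). Fgf15 was lower than in E6.0 epiblasts in FS (3.06-fold, adjusted p 0.00140), AF (5.98-fold, adjusted p 0.000250) and AFX (2.77-fold, adjusted p 0.0135, and 0.0631 without AFX passage 14). FS was also below E5.5 in Fgf15 (2.11-fold, adjusted p 0.0200, and 0.0966 without E5.5 embryo 3), called in 14 of 17 alternatives. Fgf8 in FS was 6.48-fold below E6.0 (adjusted p 0.0236), a call lost without E6.0 embryo 2 (-2.21, adjusted p 0.112) or with FS1 alone (-1.78, adjusted p 0.115), while AF and E6.0 overlapped (0.09, 95% interval -2.07 to 2.25). The FS call was kept in 14 of 17 alternatives.

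Of the 10 genes, only the receptors were called higher in culture in any of these comparisons, Fgfr2 in FS against E5.5 alone. Fgfr1 exceeded E5.5 by 0.48 and E6.0 by 0.45 in FS (edgeR adjusted p 0.00107 and 0.00202) and E6.0 by 0.73 in AFX (adjusted p 0.000106), and AF exceeded E6.0 by 0.15 without a call. Fgfr2 was 5.54-fold above E5.5 in FS (2.47 ± 0.870, adjusted p 0.0307), where FS2 passage 13 overlapped the embryos. That call was lost without FS1 passage 11 or 18 or any E5.5 embryo (adjusted p 0.0521 to 0.106), and FS2 alone gave 1.27 (adjusted p 0.251). In all, 10 of 17 alternatives kept it. Against E6.0, Fgfr2 was not called in FS (0.47, adjusted p 0.653), AF (0.36, adjusted p 0.778) or AFX (1.37, adjusted p 0.238). With FS2 alone in place of FS, it was below E6.0 (-0.74).

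Over the 12 cultured samples the levels of the feedback genes and Etv4 were positively correlated, as a description of samples that share lines, media and passages. Log2 CPM of Spry4 and Etv4 had a Pearson r of 0.88 (Spearman rho 0.90), and r was 0.78 without the 2 samples whose Spry4 was farthest from the median. Spry2 and Etv4 had an r of 0.87 (rho 0.78, r 0.79 without 2), Spry2 and Spry4 0.79 (0.82, 0.71) and Spry4 and Dusp6 0.78 (0.73, 0.61). Within the 6 FS samples, Spry2 and Spry4 kept an r of 0.94 (rho 0.89, r 0.64 without 2), while Spry4 and Dusp6 had 0.08 (rho -0.20). Fgf4 and Fgf8 ran against each other, with an r of -0.77 over cultured samples (rho -0.80, r -0.78 without 2) and -0.65 within FS (rho -0.77, r -0.89 without 2). The value within FS includes the split between the lines, which did not overlap in either gene. Within FS1, passage 10 was highest in both genes, and within FS2, passage 16 was lowest in Fgf4 and highest in Fgf8. In the 9 epiblasts these correlations were lower in size: Spry4 and Etv4 had an r of 0.12, Spry2 and Spry4 -0.47 and Fgf4 and Fgf8 -0.45. There Fgf8 and Spry2 had 0.89 (rho 0.75, r 0.73 without 2), and Fgf4 and Etv5 0.80, which fell to 0.36 without 2 embryos. Spry2 and Dusp6 had 0.70 in epiblasts (rho 0.73, r 0.70 without 2) and 0.52 over cultured samples (rho 0.48, r 0.35 without 2). In all, 45 pairs were computed in each set of samples.

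**Figure D5:**
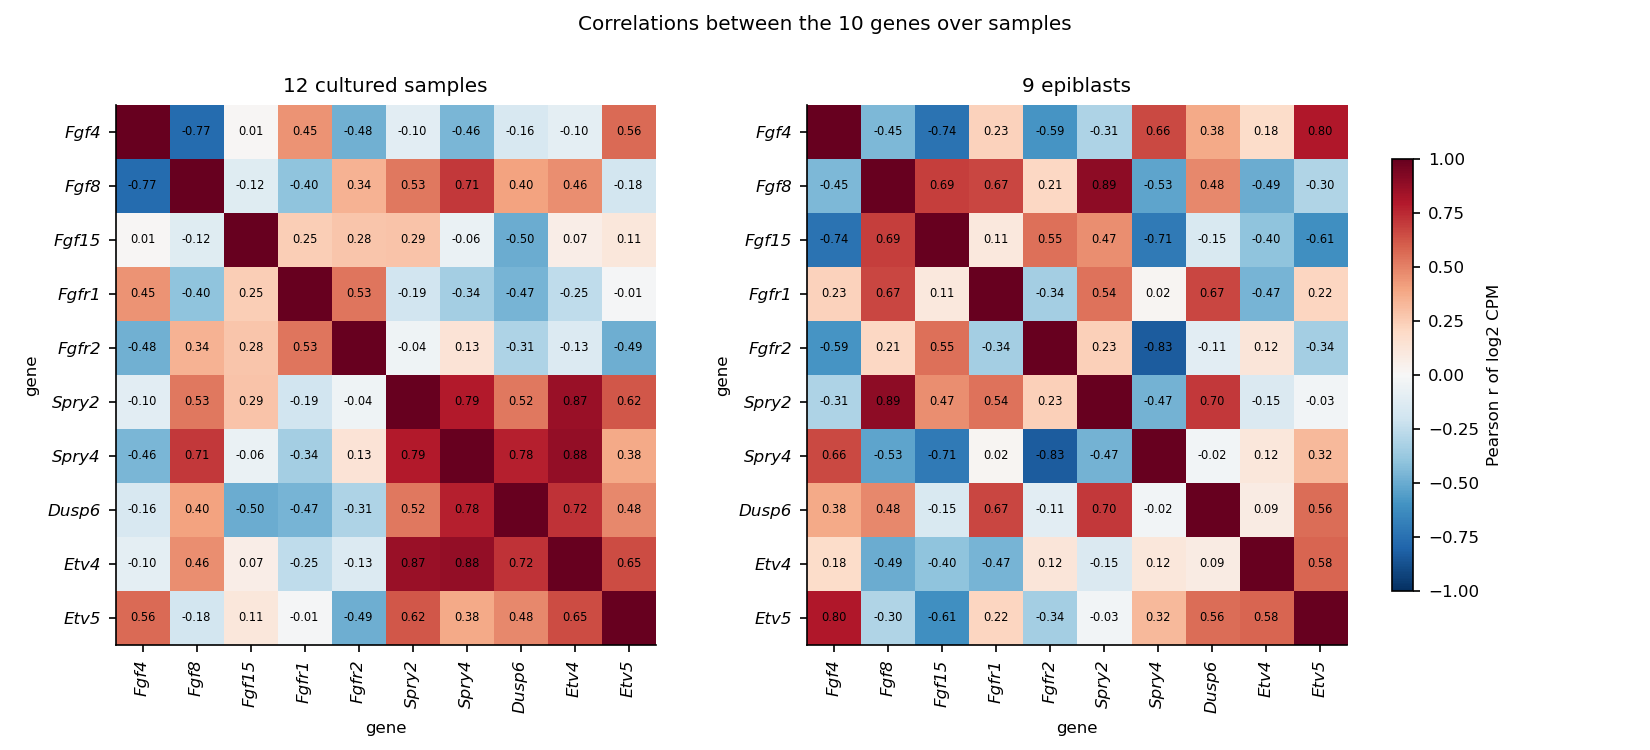
Pearson correlations of log2 CPM between the 10 genes (both axes) over the 12 cultured samples (left) and the 9 epiblasts (right), with colour and numbers giving r. Spry2, Spry4, Dusp6 and Etv4 form a block of positive values in cultured samples. Of these pairs, only Spry2 and Dusp6 have a high value in the epiblasts (0.70).

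Among 10192 expressed genes ranked by correlation with each of the 10, the closest to Etv5 over all 21 samples were Pou3f1 (r 0.97) and Dnmt3a (0.97), and the closest to Fgf4 were Tet1 (0.95) and Zcwpw1 (0.94). Within cultured samples Dusp6 was closest to Trim25 (0.96), and the inhibitor gene Il17rd was among the closest 3 (0.94), and Spry4 was closest to Trh (0.95). Within epiblasts Fgf4 was closest to Arhgef3 (0.99), and Gdf3 was among the closest 3 (0.99). Fgf8 over all samples was closest to Relt (0.85) and Gsc (0.84), a gene of the primitive streak list.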

How the data were processed

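The authors deposited 1 table of raw counts per gene with a column for each of the 21 samples. Per the labels' protocols, RNA was prepared with the PicoPure kit. Per the submitters' processing notes, the tools were Trim Galore, TopHat2 2.1.0 and featureCounts 1.5.0 with the mm10 build, and their settings are not given in the sources used here. Reads of multigene copies and of overlapping genes can therefore be assigned in ways that are not known.

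Tests were run on these counts by edgeR 4.0.16 (R 4.3.3), after a filterByExpr filter and TMM scaling, as two-sided robust quasi-likelihood F-tests. Benjamini-Hochberg adjustment covered every gene of a fit, and a call needed an adjusted p below 0.05. FS, AF and AFX were compared in a fit of the 12 cultured samples that pools FS1 and FS2, which had groups of their own for FS2 against FS1. Stages were compared in a fit of the 9 epiblasts, and culture with epiblast in a fit of all 21 samples. Printed levels are CPM on TMM-scaled totals of all 21 samples, divided by GENCODE M21 exon length where given per kilobase. Correlations used log2 CPM with a prior count of 2. The SE of a log2 fold change is its size over the square root of F.

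Counting error did not account for the differences within any of 21 pairs of same-group samples (chi-square per degree of freedom 4.84 to 29.0), so none was counted as a repeat. P-values measure the spread between passages of 1 line, or between embryos. Where FS1 and FS2 are pooled, they mix the spread between passages with that between the 2 lines. In the fit of all 21 samples, cultures and embryos share 1 estimate of the spread. The steps were tested on simulated data. The 10 genes, the pathway and marker lists and the tests were chosen with earlier results of these data known. Named from the other pathway genes are, in each comparison within cultured cells or epiblasts, up to 3 genes per direction with the largest called fold change whose higher mean reached 10 CPM, and Fgf2, Fgf5, Spry1, Spred1, Spred2, Dusp4, Il17rd and Etv1. For likeness, the 3 genes with the highest Pearson correlation over the samples were taken. The alternatives were scaling by DESeq2 1.42.0 size factors, its Wald test, no filter on low counts, leaving out 218 loci of ribosomal RNA type, fitting just the 2 groups compared, using 1 FS line in place of both or keeping the lines separate, a replicate block, and omitting each sample in turn. Of those loci, 3 were added after the most abundant genes were seen. Figures were drawn with matplotlib 3.10.9.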

Additional observations from a re-analysis of the deposited data

Results flagged for a closer look

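In the 6 FS samples, 2 of the 10 genes had 1 sample far from the others by Dixon's test on CPM. Chance does this in about 1 in 20 groups drawn from 1 normal population. The 6 samples come from 2 lines, so that rate need not hold here. Fgf8 was at 27.3 CPM in FS1 passage 10, with the nearest FS sample at 8.40 CPM. Etv4 was at 29.7 CPM in FS2 passage 13, with the nearest at 18.6 CPM. The groups of 3 samples were not tested in this way.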

How the results depend on the processing

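Depth limits Fgf8 in FS2, whose samples at passages 12 and 13 rested on 7 and 9 counts. Over the alternatives the 10 genes gave 1500 values: 1327 kept their direction and their side of the threshold, 80 lost a call, 34 gained one and 59 changed sign. Where a count or a sign moved, the cause was not tested. With DESeq2 size factors, FS2 against FS1 called 2 of the other pathway genes. With no filter on low counts, FS against AFX called 0 of the 10 genes, FS2 against FS1 called 1298 of all genes, 5 of the 10 genes and 5 of the other pathway genes, E5.5 against E5.0 called 1659 of all genes, E6.0 against E5.5 called 1107 of all genes and 7 of the other pathway genes, E6.0 against E5.0 called 1 of the 10 genes. Without ribosomal RNA loci, FS2 against FS1 called 2 of the other pathway genes. By the DESeq2 Wald test, FS2 against FS1 called 1045 of all genes and 5 of the other pathway genes, E5.5 against E5.0 called 1564 of all genes, E6.0 against E5.5 called 1031 of all genes and 5 of the other pathway genes. In a fit of just the 2 groups, AFX against AF called 3 of the 10 genes, FS2 against FS1 called 1045 of all genes and 3 of the other pathway genes, E5.5 against E5.0 called 453 of all genes and 2 of the other pathway genes, E6.0 against E5.5 called 1445 of all genes, 4 of the 10 genes and 5 of the other pathway genes, E6.0 against E5.0 called 1 of the 10 genes. With FS1 in place of both lines, FS against AF called 15 of the other pathway genes, FS against AFX called 3 of the other pathway genes. It gave log2 differences of -0.61 for Fgf4 (FS against AFX), 0.16 for Fgf8 (FS against AFX), 0.19 for Fgf15 (FS against AFX) and 0.41 for Fgf8 (FS against E5.5). With FS2 in place of both lines, FS against AFX called 4 of the 10 genes and 14 of the other pathway genes. It gave log2 differences of -1.11 for Fgfr2 (FS against AF), 0.20 for Etv5 (FS against AF), 0.42 for Fgf4 (FS against E6.0) and -0.74 for Fgfr2 (FS against E6.0). With the FS lines kept separate, FS against AFX called 15 of the other pathway genes, AFX against AF called 3 of the 10 genes. It gave log2 differences of -0.17 for Fgfr2 (FS against AF) and -0.0064 for Fgf4 (FS against AFX).

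With a replicate block of passage number, AFX against AF called 907 of all genes, 4 of the 10 genes and 5 of the other pathway genes. With a replicate block of embryo number, E5.5 against E5.0 called 421 of all genes, 1 of the 10 genes and 4 of the other pathway genes, E6.0 against E5.0 called 1 of the 10 genes. It gave log2 differences of 0.084 for Etv4 (E6.0 against E5.0). The passage numbers of AF and AFX and the embryo numbers did not pair the samples: deviations of same-numbered samples correlated at -0.12, -0.09 and 0.20 in culture and at -0.048 to 0.10 in epiblasts.

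With 1 sample left out at a time, calls of all genes ran from 820 to 1485 for FS against AFX, from 732 to 1129 for AFX against AF, from 316 to 478 for FS2 against FS1, from 371 to 1260 for E5.5 against E5.0, from 1905 to 3362 for E6.0 against E5.0 and from 238 to 372 for E6.0 against E5.5. Calls of the 10 genes then ran from 2 to 5 for FS against AF, from 0 to 2 for FS against AFX, from 0 to 1 for AFX against AF, from 0 to 3 for FS2 against FS1, from 1 to 3 for E6.0 against E5.0, from 1 to 2 for E6.0 against E5.5, from 2 to 4 for AF against E6.0 and from 2 to 4 for AFX against E6.0. Calls of the other pathway genes ran from 17 to 32 for FS against AF, from 5 to 10 for AFX against AF, from 0 to 1 for FS2 against FS1, from 2 to 9 for E5.5 against E5.0, from 11 to 22 for E6.0 against E5.0 and from 1 to 4 for E6.0 against E5.5. Fgfr2 ran on the log2 scale from -0.18 to 0.31 for FS against AF, from -2.01 to 0.86 for E5.5 against E5.0 and from -0.0016 to 2.86 for E6.0 against E5.0. Etv5 ran from -0.18 to 0.083 for FS against AF. Fgf4 ran from -0.077 to 0.28 for FS against AFX, from -0.26 to 0.18 for FS against E6.0 and from -0.32 to 0.038 for AFX against E6.0. Fgf8 ran from -1.73 to 0.19 for FS against AFX, from -1.47 to 0.21 for FS against E5.5 and from -0.36 to 0.57 for AF against E6.0. Fgf15 ran from -0.51 to 0.36 for FS against AFX. Spry2 ran from -0.40 to 0.16 for AFX against AF, from -0.39 to 0.17 for FS2 against FS1 and from -0.15 to 0.13 for E6.0 against E5.0. Fgfr1 ran from -0.13 to 0.045 for FS2 against FS1 and from -0.061 to 0.092 for E6.0 against E5.5. Spry4 ran from -0.81 to 0.037 for FS2 against FS1 and from -0.45 to 0.18 for AFX against E6.0. Etv4 ran from -0.048 to 0.54 for FS2 against FS1, from -0.050 to 0.36 for E5.5 against E5.0, from -0.33 to 0.081 for E6.0 against E5.0, from -0.11 to 0.30 for AF against E6.0 and from -0.33 to 0.010 for AFX against E6.0. Dusp6 ran from -0.077 to 0.079 for E6.0 against E5.5.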

Other observations

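Between cultured cells and E6.0 epiblasts, 82 of the other pathway genes were tested. FS had 14 higher and 29 lower, AF 16 higher and 12 lower, and AFX 14 higher and 22 lower, and these comparisons share the E6.0 embryos. Of all genes, 38.9%, 35.2% and 32.8% were called in the same comparisons, so that the AF count was near that of all genes. Immediate early genes had the lowest medians of the lists in FS (-2.10 on the log2 scale, 6 of 8 lower and 1 higher), AF (-1.04, 4 lower and 2 higher) and AFX (-1.07, 5 lower and 2 higher). Among the inhibitors, Spred1 was higher in culture than at E6.0 in FS (0.87, edgeR adjusted p 0.00186), AF (1.58, adjusted p 2.08e-05) and AFX (1.28, adjusted p 0.000230). Spred2 was lower in the same comparisons (-0.44, -0.65 and -0.86, adjusted p 0.00549, 0.00114 and 8.63e-05). Dusp4 was at 113 ± 36.7 CPM at E6.0 (SD, n = 3), and was lower in FS (-2.71, adjusted p 3.22e-07) and in AFX (-1.18, adjusted p 0.00633). AF against E6.0 was not called for Dusp4 (-0.49, adjusted p 0.218).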
